A study of Mus musculus with 18 samples.

Results

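The genes described here lie on the distal part of mouse chromosome 4, from Arid1a to Agrn, the last measured gene of that chromosome. The 45 listed symbols were chosen by the log2 values of WT parous against WT nulliparous tumours, as genes of a region lower in tumours of parous mice with intact Snai2, and each gene was read from the brightest probe set that names it alone. Of these, 42 were measured, out of 19938 genes with such a probe set in the whole series. Ubr4 had only a probe set shared with other genes, and Aurkaip1 and Noc2l had none that names them, so these 3 are not analysed here. The 42 genes are a choice within their region: chromosome 4 held 1154 measured genes, 319 of them between Arid1a and Agrn, both included, 835 before Arid1a and 0 after Agrn.

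RNA of mammary tumours was measured on 18 single-colour arrays, 1 per tumour by the labels. All mice carried the ErbB2 protooncogene as an MMTVneu transgene of the FVB/N strain, in which the mouse mammary tumour virus promoter drives neu in mammary epithelium. Mice called KO lacked Snai2 in the germ line through the Snai2tm2Grid allele, kept on B6;129S1 stock, and mice called WT had Snai2. The groups were KO parous with metastasis (3 arrays), KO parous without metastasis (3), KO nulliparous with metastasis (1), KO nulliparous without metastasis (3), WT parous with metastasis (4) and WT nulliparous with metastasis (4). Ages, the strain makeup of each animal and the breeding scheme are not given in the sources used here. Every WT mouse had metastasis, so WT tumours offer no comparison by metastasis, and KO and WT tumours without it cannot be compared.

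In the group of KO parous mice with metastasis, the arrays of replicates 2 and 3 barely differed. Over bright genes the SD between them was 0.102, while the next closest of 153 array pairs had 0.285, so their mean was used as 1 sample and 17 samples remained. Erbb2, Krt8, Krt18 and Epcam, which mark luminal mammary tumour cells, stood at or above the 98.7th percentile of genes in every sample, and the epithelial cadherin Cdh1 at or above the 93.4th. Snai2 itself averaged 6.54 ± 0.17 in KO samples and 6.84 ± 0.17 in WT samples (SD, n = 9 and 8), both low on an array whose values ran from 3.99 to 14.62 on the log2 scale.

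As background, the end of mouse chromosome 4 corresponds to the end of the short arm of human chromosome 1, a region often lost in human tumours. Its genes share a neighbourhood and no single pathway. They include the chromatin remodelling subunit Arid1a, the initiator caspase Casp9, the apoptotic nuclease inhibitor Dffa, the beta-catenin inhibitor Ctnnbip1, the Wnt signal protein Dvl1, and housekeeping enzymes such as Pgd and Nadk. The arrays measured their RNA and not their DNA.

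The level of the 42 genes was summarised for each tumour as the median, over the genes, of the log2 value minus that gene's mean over the 17 samples. The level was -0.10, -0.24, -0.26 and -0.16 in the 4 WT parous tumours, against 0.35, 0.37, 0.17 and 0.42 in the 4 WT nulliparous tumours. Every WT parous tumour was below 0 and every WT nulliparous tumour above it; the genes were chosen for lying in a region with that difference. In KO tumours of parous mice the level was -0.11 and -0.26 with metastasis and -0.14, -0.21 and -0.21 without metastasis. In KO tumours of nulliparous mice it was 0.25 with metastasis and -0.07, -0.26 and 0.23 without metastasis. All 5 KO parous samples thus lay in the low range of WT parous tumours, while the 4 KO nulliparous samples were split, 2 in the range of WT nulliparous tumours and 2 in that of parous ones or just above it.

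**Figure D1:**
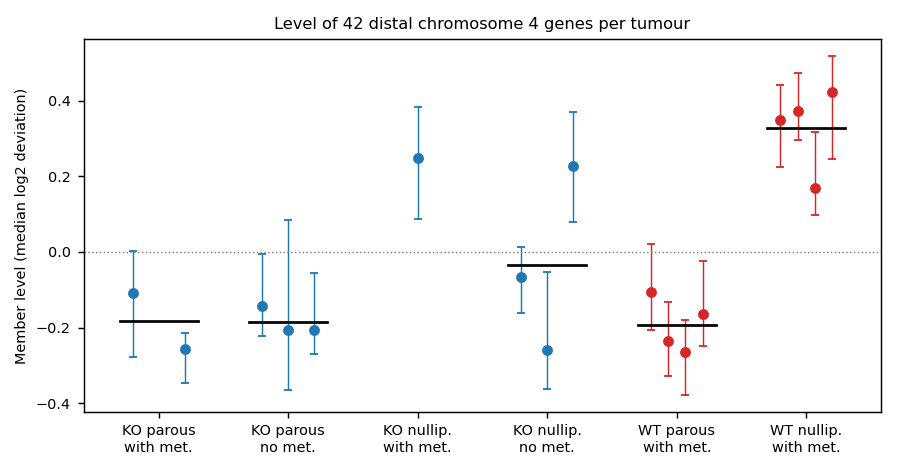
Level of the 42 distal chromosome 4 genes in each of 17 samples, as the median log2 deviation from each gene's mean; vertical bars run from the lower to the upper quartile of the genes, and black lines are group means. KO groups are blue and WT groups red; KO nulliparous samples reach from -0.26 to 0.25, while all 9 parous samples lie below 0.

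The same contrast chose the genes, so the WT values that follow are a description and no test of them. The difference of WT parous minus WT nulliparous tumours had a median of -0.52 over the 42 genes on the log2 scale, a ratio of 0.699, and ran from -1.02 in Ctnnbip1 to 0.14 in H6pd. It was below 0 in 40 of the 42. All 4 WT parous tumours lay below all 4 WT nulliparous tumours in 26 genes, where 7.63% of all genes tested did so. The limma fit over all genes called 16 of them lower at an adjusted p under 0.05, where it called 1.86% of all genes lower. These arrays were made from whole tumours, so fewer cells of a type and less RNA per cell cannot be told apart.

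The low values were not confined to the list. Leaving out the dimmest 40% of genes, the list had a median of -0.55 over 39 genes. The 178 other genes between Arid1a and Agrn had a median of -0.42, and the 538 genes before Arid1a one of -0.39. WT parous tumours lay below all WT nulliparous tumours in 46.1% of the 178, where they did so in 10.7% of all genes that bright. The list was chosen by this contrast, so its lower median is a description. The 11208 genes on other chromosomes had a median of -0.0008. The lowest chromosome medians elsewhere were -0.17 on chromosome 2 and -0.16 on chromosome 8, against -0.40 on chromosome 4. Unlisted genes of the span reached further in both directions than the listed ones. Epha2, an ephrin receptor, had log2 values of 9.66, 9.44, 8.65 and 9.14 in WT parous tumours, against 11.50, 11.54, 11.71 and 11.83 in WT nulliparous tumours, a difference of -2.42. Extl1, of the exostosin family, differed by -1.84 and Mxra8, a matrix remodelling associated protein, by -1.27. At the other end Rbp7, a retinol-binding protein, differed by 0.73, Agtrap, which binds the angiotensin receptor, by 0.51, and Espn, an actin-bundling protein, by 0.47. The WT groups did not overlap in Epha2 and Extl1, but they did in Mxra8, Rbp7, Agtrap and Espn.

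**Figure D2:**
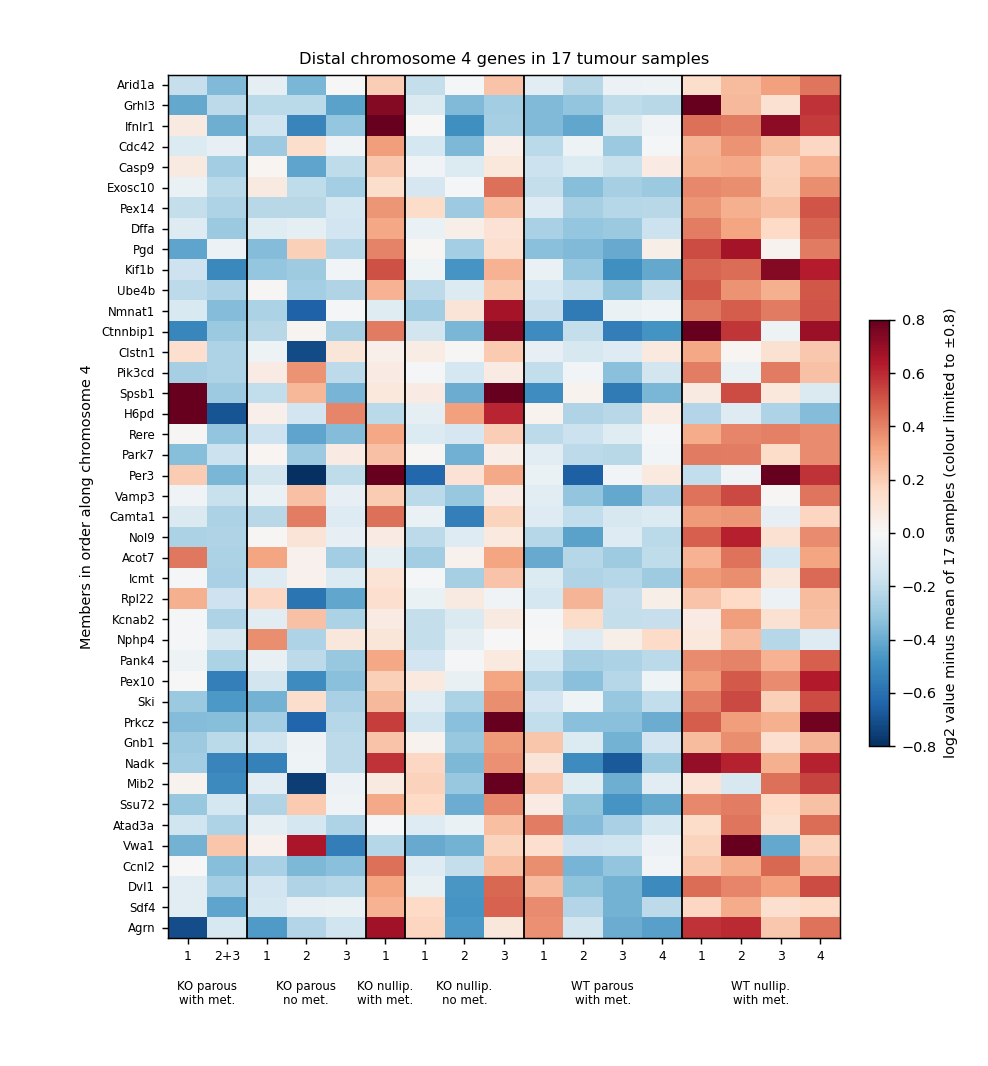
Log2 value minus the gene's mean over 17 samples for each of the 42 genes (rows, in order along chromosome 4) in each sample (columns, by group, numbered by replicate), with colours limited to 0.8 either way. Red prevails in the 4 WT nulliparous columns, KO nulliparous with metastasis replicate 1 and KO nulliparous without metastasis replicate 3; the last 10 rows of WT parous replicate 1 are red as well.

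By the brightest probe set of each gene, the largest differences were those of Ctnnbip1, Grhl3, Nadk, Kif1b, Prkcz and Ifnlr1. Ctnnbip1, whose protein keeps beta-catenin from its TCF partners, had log2 values of 8.85, 9.17, 8.81 and 8.88 in WT parous tumours, against 10.50, 9.93, 9.32 and 10.04 in WT nulliparous tumours. In KO tumours it had 8.84 and 9.06 (parous with metastasis), 9.13, 9.38 and 9.09 (parous without), 9.77 (nulliparous with) and 9.21, 8.99 and 10.10 (nulliparous without). The WT groups did not overlap, though nulliparous replicate 3 was close to the highest parous tumour, 2 KO nulliparous tumours stood well inside the WT nulliparous range, and 1 KO parous tumour was at its low edge. The mean was 8.93 ± 0.16 in WT parous and 9.95 ± 0.49 in WT nulliparous tumours (SD, n = 4 each), a difference of -1.02.

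Grhl3, a grainyhead-like transcription factor of epithelia, had 7.06, 7.09, 7.20 and 7.19 in WT parous tumours, against 9.04, 7.67, 7.53 and 7.98 in WT nulliparous tumours, a difference of -0.92. In KO tumours it had 7.00 and 7.20 (parous with metastasis), 7.19, 7.20 and 6.98 (parous without), 8.14 (nulliparous with) and 7.29, 7.06 and 7.13 (nulliparous without). One WT nulliparous tumour carried much of the WT difference, which was -0.59 without that tumour (replicate 1). The WT parous values were as low as those of Kcnab2, a dim gene close to background, where such log2 values are compressed, so the difference may understate the change. Among KO tumours only the nulliparous one with metastasis was high: KO nulliparous replicate 3 without metastasis, high in most of the other genes, was low here. Ifnlr1, the specific receptor chain for type III interferon, had 8.29, 8.22, 8.53 and 8.62 in WT parous tumours, against 9.08, 9.06, 9.36 and 9.20 in WT nulliparous tumours, a difference of -0.76. Its KO values were 8.71 and 8.25 (parous with metastasis), 8.48, 8.11 and 8.33 (parous without), 9.49 (nulliparous with) and 8.65, 8.15 and 8.37 (nulliparous without). As with Grhl3, the KO nulliparous tumour with metastasis was the only KO sample to reach the WT nulliparous range, and it was the highest of all 17 samples.

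Nadk, the kinase that makes NADP from NAD, had 10.77, 10.16, 9.99 and 10.36 in WT parous tumours, against 11.37, 11.28, 10.95 and 11.28 in WT nulliparous tumours, a difference of -0.90. Among KO tumours it had 10.38 and 10.13 (parous with metastasis), 10.12, 10.63 and 10.45 (parous without), 11.24 (nulliparous with) and 10.83, 10.30 and 11.03 (nulliparous without). WT parous replicate 1 came nearest to the nulliparous tumours, and the same 2 KO nulliparous tumours were high. Kif1b, a kinesin motor, had 10.00, 9.75, 9.56 and 9.64 in WT parous tumours, against 10.52, 10.50, 10.79 and 10.68 in WT nulliparous tumours, a difference of -0.88. In KO tumours it had 9.89 and 9.54 (parous with metastasis), 9.74, 9.77 and 10.03 (parous without), 10.56 (nulliparous with) and 10.02, 9.58 and 10.33 (nulliparous without). The WT groups stood well apart, with the parous tumours spread more widely than the nulliparous ones.

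Prkcz, an atypical protein kinase C of cell polarity, had 8.87, 8.73, 8.73 and 8.66 in WT parous tumours, against 9.54, 9.39, 9.35 and 9.83 in WT nulliparous tumours, a difference of -0.78. Its KO values were 8.71 and 8.72 (parous with metastasis), 8.78, 8.43 and 8.83 (parous without), 9.61 (nulliparous with) and 8.90, 8.73 and 10.22 (nulliparous without), the widest KO range of all 42 genes at 1.79. The highest value of the 17 samples was that of KO nulliparous replicate 3 without metastasis. A second probe set that names Prkcz gave smaller differences, -0.27 in place of -0.78 between WT groups and -0.16 in place of -0.60 between KO groups without metastasis, so the size for this gene depends on the probe set, and by the second one it would not be among the lowest. Whether the brighter probe set lies within the gene was not checked. Camta1, a calmodulin-binding transcription activator, had 4 probe sets: the brightest gave -0.34 between WT groups, and the dimmer ones gave 0.87, -0.06 and -0.03.

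**Figure D3:**
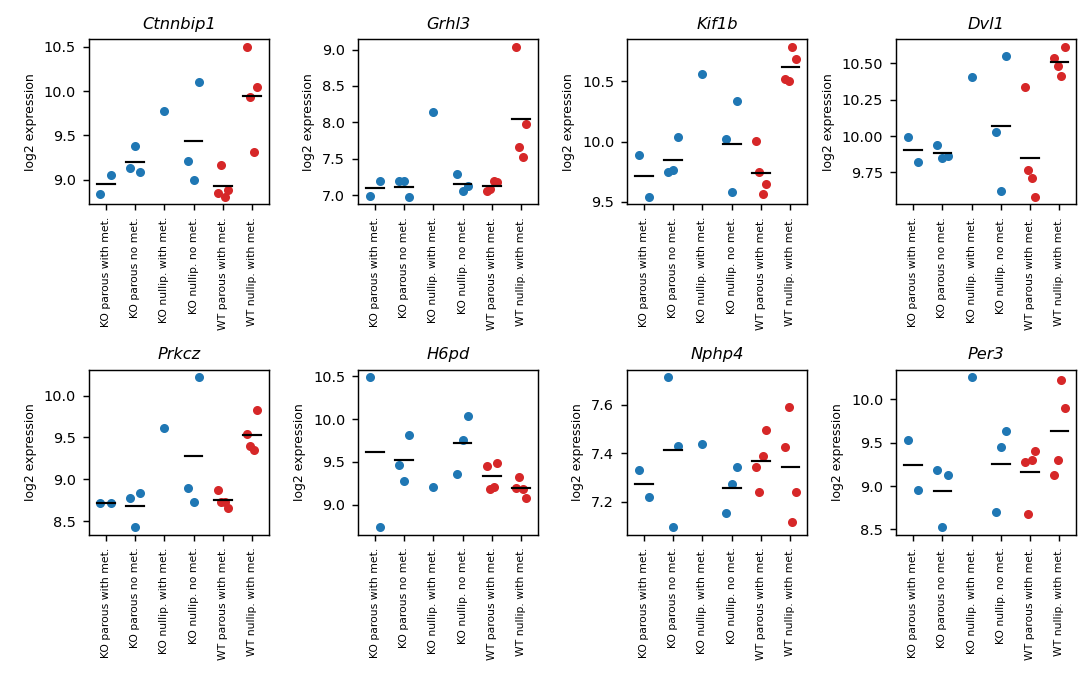
Log2 expression of 8 distal chromosome 4 genes in each sample of the 6 groups (KO blue, WT red; black lines are group means). Ctnnbip1, Grhl3, Kif1b and Dvl1 are separated between WT parous and WT nulliparous tumours, H6pd and Nphp4 are not, and Prkcz and Per3 vary widely among KO samples.

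Promoter sequence was not part of the choice of genes, and 5 stretches are shown because their genes differed most (Ctnnbip1, Grhl3, Nadk) or were not lower (H6pd, Nphp4) between the WT groups. Each is the 250 bases before the first start listed by RefSeq on GRCm38.p6, 5′ to 3′ on the gene's strand. They lie at chr4:149517991-149518240 (plus strand), chr4:135573633-135573882 (minus), chr4:155562131-155562380 (plus), chr4:150003237-150003486 (minus) and chr4:152476456-152476705 (plus). Capitals mark the E-box letters CAGGTG and CACCTG, the form Snail family proteins are known to bind, and the GC box letters GGGCGG and CCGCCC.
Ctnnbip1: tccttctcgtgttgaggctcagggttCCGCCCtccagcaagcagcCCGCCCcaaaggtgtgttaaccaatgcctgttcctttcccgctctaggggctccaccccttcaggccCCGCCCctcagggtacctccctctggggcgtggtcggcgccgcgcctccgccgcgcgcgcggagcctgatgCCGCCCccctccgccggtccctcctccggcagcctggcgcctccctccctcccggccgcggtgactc
Grhl3: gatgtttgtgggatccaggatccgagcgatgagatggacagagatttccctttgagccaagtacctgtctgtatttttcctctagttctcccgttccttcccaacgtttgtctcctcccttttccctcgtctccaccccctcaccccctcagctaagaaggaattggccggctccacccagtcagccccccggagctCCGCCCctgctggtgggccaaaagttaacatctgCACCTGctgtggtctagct
Nadk: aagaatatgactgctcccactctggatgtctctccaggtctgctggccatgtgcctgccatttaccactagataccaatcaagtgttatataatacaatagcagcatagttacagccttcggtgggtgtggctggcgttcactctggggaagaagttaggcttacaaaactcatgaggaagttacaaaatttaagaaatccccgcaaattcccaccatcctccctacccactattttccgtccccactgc
H6pd: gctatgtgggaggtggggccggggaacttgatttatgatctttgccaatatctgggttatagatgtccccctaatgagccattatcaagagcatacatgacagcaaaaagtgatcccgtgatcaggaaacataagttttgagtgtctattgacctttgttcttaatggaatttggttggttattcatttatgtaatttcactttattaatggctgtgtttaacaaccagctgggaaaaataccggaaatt
Nphp4: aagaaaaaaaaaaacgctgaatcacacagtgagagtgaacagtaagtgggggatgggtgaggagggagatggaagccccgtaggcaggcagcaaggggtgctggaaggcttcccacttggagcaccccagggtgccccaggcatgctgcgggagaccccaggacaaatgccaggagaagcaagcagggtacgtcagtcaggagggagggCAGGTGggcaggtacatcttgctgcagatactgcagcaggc
The Ctnnbip1 stretch held 4 GC boxes and 24 CpG dinucleotides and was 72.4% G and C. The H6pd stretch held no match to either motif, 3 CpG dinucleotides and 38.8% G and C. Nadk also had no match and 46.8% G and C.

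Over windows from 250 bases before to 50 after each listed start, 39 of the 42 genes had at least 1 window, 61 windows in all. Motifs were searched on both strands, each counted on its own whether or not it overlapped another. CAGGTG lay in 24.6% of these windows, against 18.4% of the 12180 windows of the brighter 60% of genes and 20.2% of all 32851 windows. It was found in 6 of the 25 genes whose WT groups did not overlap and that had a window, and in 5 of the 14 whose groups overlapped. GGGCGG lay in 72.1% of the windows of the listed genes, against 62.6% for the brighter genes and 35.7% for all. TATAAA lay in 4.92%, against 7.04% and 13.6%. Windows of the listed genes had a median of 63.3% G and C, against 60.7% for the brighter genes and 52.7% for all. That median was 65.5% for genes whose WT groups did not overlap and 61.3% for those whose groups overlapped, and GGGCGG was found in 23 of the 25 and 12 of the 14.

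By role, the genes with no overlap between the WT groups were spread over nearly every class. Among 11 genes of metabolism and organelles, 8 had no overlap, with a median of -0.55. They include Pex14 (-0.55) and Pex10 (-0.66) of peroxisome import, Nmnat1 (-0.67) of nuclear NAD synthesis, the pantothenate kinase family protein Pank4 (-0.60), the prenylated protein methyltransferase Icmt (-0.53), the acyl-CoA thioesterase Acot7 (-0.50) and the oxidative stress protein Park7 (-0.47). Pgd, an enzyme of the pentose phosphate pathway, had 10.51, 10.49, 10.44 and 10.89 in WT parous tumours, against 11.37, 11.51, 10.87 and 11.26 in WT nulliparous tumours. Its mean difference was as large as those of the others, but parous replicate 4 passed nulliparous replicate 3.

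Among 8 signalling genes 5 had no overlap, with a median of -0.54. Dvl1, a dishevelled protein of Wnt signalling, had 10.34, 9.77, 9.71 and 9.58 in WT parous tumours, against 10.54, 10.48, 10.41 and 10.61 in WT nulliparous tumours, and the polarity GTPase Cdc42 had 11.75, 11.93, 11.67 and 11.95, against 12.24, 12.32, 12.22 and 12.13. Parous replicate 1 came close to the nulliparous tumours in Dvl1, and in Cdc42 replicates 2 and 4 were the higher parous tumours. Pik3cd, the PI3-kinase subunit best known from leukocytes, was dim, at 6.92, 7.10, 6.78 and 6.97 in WT parous tumours, against 7.53, 7.06, 7.53 and 7.35 in WT nulliparous tumours, and the groups overlapped in 1 tumour of each.

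Of 6 genes of transcription and chromatin, 5 had no overlap, with a median of -0.48. Arid1a, the DNA-binding subunit of the BAF complex, had 10.55, 10.41, 10.59 and 10.60 in WT parous tumours, against 10.78, 10.89, 10.97 and 11.07 in WT nulliparous tumours, a small but complete separation. Ski, a corepressor of Smad signalling, differed by -0.59, Rere, an atrophin family corepressor, by -0.49, and Camta1 by -0.34. Both genes of apoptosis were lower without overlap: Casp9 had 8.78, 8.84, 8.77 and 9.01, against 9.23, 9.25, 9.13 and 9.22, and Dffa had 8.84, 8.79, 8.81 and 8.93, against 9.51, 9.42, 9.26 and 9.57, each with WT parous before WT nulliparous tumours.

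Of 5 genes of RNA and the ribosome 3 had no overlap: Exosc10, a nuclease of the RNA exosome (-0.60), Nol9 of ribosomal RNA processing (-0.64), and Ssu72, a phosphatase of the RNA polymerase II tail (-0.58). Ccnl2, a cyclin of splicing, overlapped through 1 parous tumour (-0.39). In the ubiquitin system the ligase Ube4b (-0.62) had no overlap, while the SOCS box adaptor Spsb1 (-0.49) and the Notch ligand ligase Mib2 (-0.33) had some. In trafficking and cytoskeleton Kif1b and the vesicle SNARE Vamp3 (-0.62) had none. Both basement membrane genes overlapped: Agrn, agrin, at -0.61 and Vwa1 at -0.34.

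Overlap between the WT groups, found in 16 genes with differences from -0.67 to 0.14, took several forms. In H6pd, the hexose-6-phosphate dehydrogenase of the endoplasmic reticulum, the values were 9.46, 9.19, 9.20 and 9.49 in WT parous tumours, against 9.19, 9.32, 9.18 and 9.08 in WT nulliparous tumours, a difference of 0.14. Nphp4, a nephrocystin of the cilium, had 7.34, 7.24, 7.39 and 7.50 in WT parous tumours, against 7.43, 7.59, 7.11 and 7.24 in WT nulliparous tumours, a difference of 0.02. These were the only genes of the 42 not below 0. In H6pd the 2 highest values were those of parous tumours, with the others mixed, and in Nphp4, with 1 tumour left out, the difference ran from -0.05 to 0.11 and so had no settled sign.

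Rpl22, of the large ribosomal subunit, had 9.75, 10.17, 9.71 and 9.94 in WT parous tumours, against 10.12, 10.05, 9.84 and 10.15 in WT nulliparous tumours, a difference of -0.15. Parous replicate 2 was the highest of the 8. Clstn1, calsyntenin, had 11.57, 11.51, 11.53 and 11.72 in WT parous tumours, against 11.95, 11.65, 11.76 and 11.85 in WT nulliparous tumours (-0.22), and Kcnab2, a potassium channel subunit, had 7.24, 7.39, 7.06 and 7.07, against 7.31, 7.58, 7.37 and 7.49 (-0.25). In each of these 2 genes a single parous tumour reached the nulliparous range, replicate 4 in Clstn1 and replicate 2 in Kcnab2. Sdf4, a calcium-binding protein of the Golgi, had 10.41, 9.80, 9.65 and 9.82 in WT parous tumours, against 10.20, 10.33, 10.16 and 10.19 in WT nulliparous tumours (-0.30), and parous replicate 1 was the highest of the 8 tumours while the other 3 were the lowest.

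In KO samples Nphp4, Rpl22, Kcnab2, Clstn1 and Sdf4 had no split by parity that held in every sample. Nphp4 had 7.33 and 7.22 (KO parous with metastasis), 7.71, 7.09 and 7.43 (KO parous without), 7.44 (KO nulliparous with) and 7.15, 7.27 and 7.34 (KO nulliparous without), and both its highest and its lowest KO value were those of parous tumours without metastasis. Rpl22 had 10.18 and 9.73 (KO parous with metastasis), 10.06, 9.31 and 9.48 (KO parous without), 10.03 (KO nulliparous with) and 9.84, 9.97 and 9.87 (KO nulliparous without), again with a parous sample at either end. Kcnab2 had 7.24 and 7.00 (KO parous with metastasis), 7.17, 7.48 and 6.99 (KO parous without), 7.31 (KO nulliparous with) and 7.06, 7.13 and 7.32 (KO nulliparous without), all within a range of 0.49. The highest of these was a parous tumour, KO parous replicate 2 without metastasis, which was the lowest KO sample in both Nphp4 and Rpl22. Clstn1 had 11.78 and 11.39 (KO parous with metastasis), 11.60, 10.92 and 11.74 (KO parous without), 11.68 (KO nulliparous with) and 11.70, 11.65 and 11.85 (KO nulliparous without); the same tumour was the lowest there, and the 4 KO nulliparous values lay close together. Sdf4 had 9.95 and 9.61 (KO parous with metastasis), 9.89, 9.97 and 9.98 (KO parous without), 10.31 (KO nulliparous with) and 10.19, 9.56 and 10.51 (KO nulliparous without). In Sdf4 the KO nulliparous tumours held the 3 highest values and also the lowest.

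Sdf4 is one of 10 listed genes at the very end of the chromosome, Gnb1 to Agrn, in which WT parous replicate 1 left its group. It was above the genes' own means in 10 of these 10 genes, with deviations from 0.07 to 0.41 and a median of 0.24. In the 4 genes just before them, Pank4 to Prkcz, it was above in 0 of 4, with a median of -0.17, and over the 32 genes from Arid1a to Prkcz it was above in 2. The other 3 WT parous tumours were above in 0 of the last 10 genes. Gnb1, the G protein beta subunit, had 13.05, 12.72, 12.45 and 12.68 in WT parous tumours, against 13.08, 13.20, 12.96 and 13.10 in WT nulliparous tumours, and Atad3a, a mitochondrial ATPase, had 9.27, 8.52, 8.61 and 8.73, against 9.01, 9.29, 8.99 and 9.32. In both, replicate 1 stood with the nulliparous tumours and was the sole parous tumour to do so, as it was in Ccnl2, Sdf4 and Agrn.

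Without that tumour the median difference of the last 10 genes was -0.54 in place of -0.38, and 8 of them in place of 3 had no overlap. Without WT nulliparous replicate 3 the median was -0.50 and 6 had no overlap, and without any other WT tumour the count was 3. Leaving out a tumour can only keep or raise such a count. This boundary between Prkcz and Gnb1 was chosen after the values were seen.

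Windows of 25 neighbouring bright genes, 30 along the whole of chromosome 4, show how far such steps extend. WT parous replicate 1 was above 0 in the first 7 windows (0.01 to 0.39), below 0 in the next 22 (-0.25 to -0.03) and at 0.33 in the last, Slc35e2 to Agrn. WT parous replicate 2 was at 0.14 to 0.31 in the first 4 windows and at -0.34 to -0.11 in the other 26. WT parous replicates 3 and 4 were above 0 in none of the 30 windows, and each of the 4 WT nulliparous tumours was above 0 in all 30. For the WT parous group the low stretch thus covered the listed genes in all 4 tumours except the end in 1 of them, while the start of the chromosome was low in 2 tumours and high in 2.

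**Figure D4:**
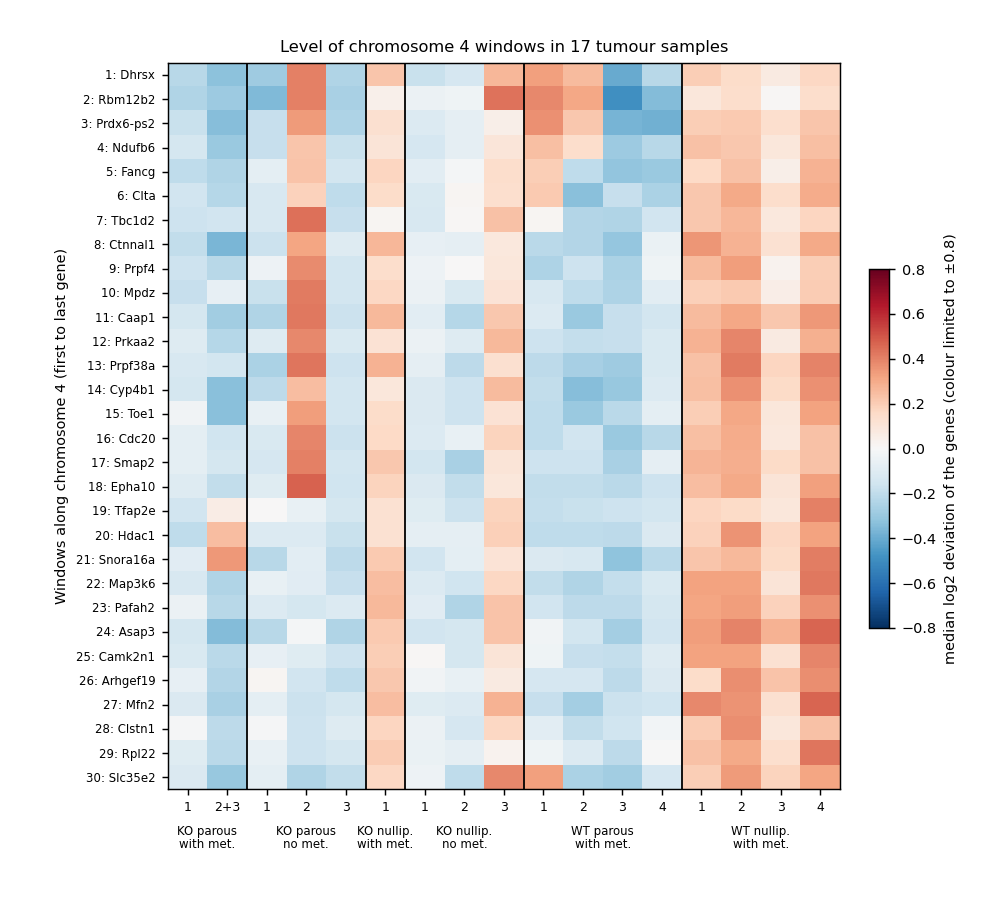
Level of 30 windows along chromosome 4 (rows, first to last gene of the chromosome, each named by its first gene) in each of 17 samples (columns, by group, numbered by replicate), as the median log2 deviation of the window's genes from their means. Listed genes bright enough for a window fall in the last ones. KO parous without metastasis replicate 2 turns from red to blue after window 18, and the joined sample of KO parous with metastasis is red in windows 19 to 21 alone.

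KO tumours, none of which was in the contrast that chose the genes, showed steps of the same kind. KO parous replicate 2 without metastasis was at 0.18 to 0.47 in windows 1 to 18, up to Psmb2, and at -0.24 to -0.02 in windows 19 to 30. The latter hold all listed genes that were bright enough for a window. The joined sample of KO parous with metastasis was at -0.37 to -0.07 in windows 1 to 18, at 0.06 to 0.35 in windows 19 to 21 (Tfap2e to Cd164l2) and at -0.34 to -0.21 from Map3k6 on. Its 2 arrays showed the same steps apart, with 0.37 and 0.33 in window 21 and -0.24 and -0.26 in window 22. KO nulliparous replicate 1 with metastasis and KO nulliparous replicate 3 without metastasis were above 0 in all 30 windows, and KO parous replicate 1 with metastasis and replicate 3 without were above 0 in none.

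The parity comparison within KO tumours without metastasis (3 parous and 3 nulliparous) used none of the tumours of the contrast that chose the genes, though the genes were listed with results of the whole series known. There, 0 of the 42 genes passed at an adjusted p under 0.05, and 0% of all genes did. The difference of KO parous minus KO nulliparous tumours had a median of -0.16 over the 42 genes and was below 0 in 33, from -0.60 in Prkcz (-0.13 without KO nulliparous replicate 3) to 0.25 in Vwa1, where all genes had a median of 0.01 with 47.4% below 0. At an unadjusted p under 0.05, 3 of the 42 genes were lower and 0 higher, where 1.56% of all genes were lower and 1.73% higher. Parous tumours lay below all nulliparous ones in 4 genes, Dffa, Rere, Pex10 and Ccnl2, where 2.9% of all genes did. Genes that share a region and a tumour are not independent, so these counts carry no p of their own.

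Pex10, a peroxisomal ubiquitin ligase, had 8.88, 8.52 and 8.69 in KO parous tumours without metastasis, against 9.10, 8.97 and 9.34 in KO nulliparous tumours without metastasis, and differed by -0.44 (SE 0.15), with an unadjusted p of 0.0099 and an adjusted p of 0.9995 in limma. Rere had 10.27, 10.01 and 10.09, against 10.32, 10.30 and 10.63, and differed by -0.30 (SE 0.11), with an unadjusted p of 0.0148 and the same adjusted p in limma. Nmnat1 had 8.88, 8.48 and 9.12, against 8.86, 9.23 and 9.80, and differed by -0.47 (SE 0.21), with an unadjusted p of 0.0486 in limma. The groups did not overlap in Pex10 and Rere, though Rere differed by -0.19 without nulliparous replicate 3, and in Nmnat1 1 parous tumour passed 1 nulliparous tumour and the difference was -0.22 without nulliparous replicate 3. None of the 3 passed once adjusted over all genes.

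The KO median rested on 1 tumour. Without KO nulliparous replicate 3 it was -0.02, and with each other tumour left out it lay between -0.23 and -0.14. In the KO tumours with metastasis, the joined parous sample and parous replicate 1 had levels of -0.26 and -0.11, against 0.25 in the nulliparous tumour, a gap in the same direction with 1 tumour on the nulliparous side. A fit over all 9 KO samples with metastasis status as a covariate, chosen after the data were seen, gave a median of -0.25 and called 0 of the 42 genes. The WT and KO parity differences of the 42 genes had a Pearson r of 0.19 across genes, a description over 42 genes that share the same arrays.

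**Figure D5:**
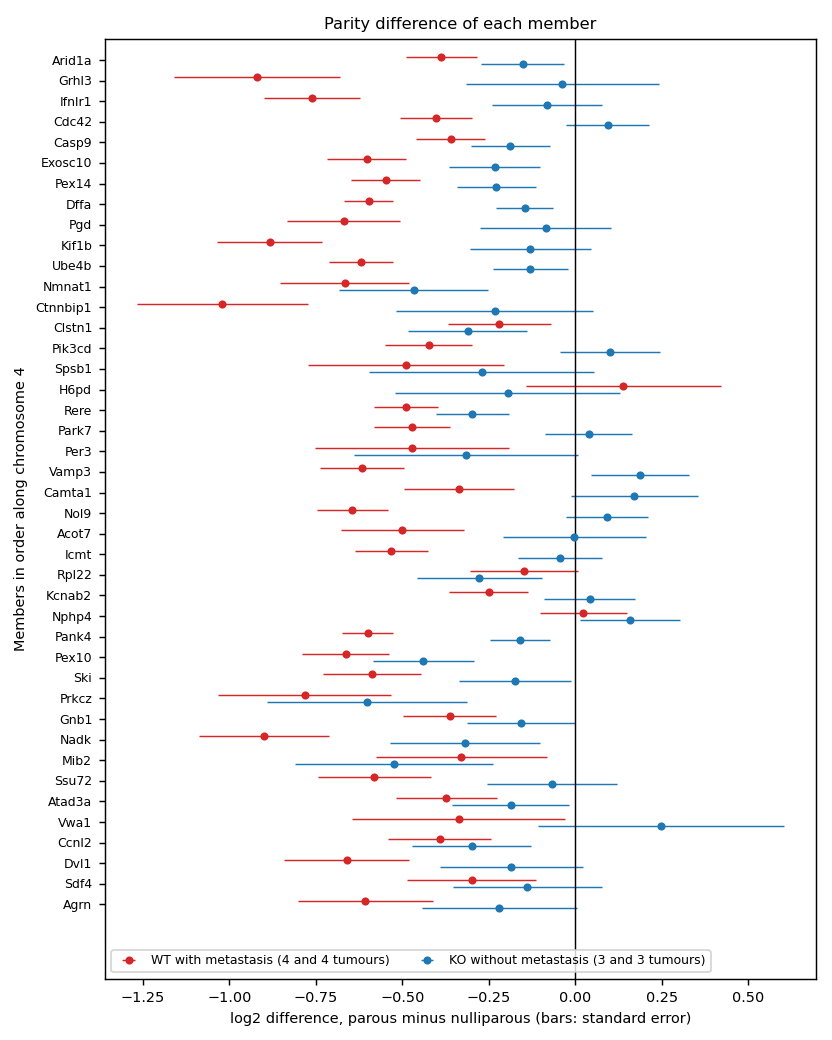
Log2 difference of parous minus nulliparous tumours for each of the 42 genes, in order along chromosome 4, in KO tumours without metastasis (blue, 3 and 3 tumours) and WT tumours with metastasis (red, 4 and 4 tumours; the contrast that chose the genes). Bars are standard errors of the limma fit; 33 of the 42 blue points and 40 of the 42 red points lie below 0.

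Metastasis was compared within KO parous tumours, 2 samples with it and 3 without. The median difference of KO parous with minus without metastasis was -0.06, below 0 in 26 of the 42 genes, where all genes had a median of -0.03 with 61.1% below 0. None of the 42 genes passed in limma, 0% of all genes did, and 0 of the 42 had an unadjusted p under 0.05, where 4.04% of all genes had one. The groups did not overlap, with metastasis lower, in 4 of the 42 genes, where 10% of all genes did so. The smallest unadjusted p was that of Pik3cd, which had 6.85 and 6.87 with metastasis, against 7.19, 7.48 and 6.91 without, and differed by -0.33 (SE 0.16), with an unadjusted p of 0.0627 and an adjusted p of 0.967 in limma. With 2 samples on one side, small differences could not be resolved.

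The KO groups were also set beside WT tumours, whose values chose the genes. The difference of KO parous minus WT parous tumours, both with metastasis, had a median of -0.02 over the 42 genes, and 0 of them were free of overlap with KO lower, where 11.7% of all genes were. That of KO nulliparous tumours without minus WT nulliparous tumours with metastasis had a median of -0.33 and was below 0 in 40 genes, with 13 free of overlap with KO lower, where 6.8% of all genes were, and 1, H6pd, with KO higher, where 6.05% were. In that pair genotype and metastasis status differ together and cannot be told apart. Both comparisons share WT tumours with the contrast that chose the genes, so neither is a test of them.

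The 42 genes moved together across KO samples. The Pearson r of a gene with the median of the other 41, over the 9 KO samples, had a median of 0.73 and was above 0.5 in 33 genes. Bright genes on other chromosomes had a median r of -0.03 with the level. Positive and negative r can cancel in such a median, so it is no measure of how particular the joint movement was. No r is given here for unlisted genes of chromosome 4. Unlisted bright genes of the span had a level above 0 in KO nulliparous replicate 1 with metastasis (0.19) and replicate 3 without (0.17). In every other KO sample their level was below 0, as was that of the listed genes. The r values are descriptions over 9 samples of both parities, with all genes read from the same arrays and no test. Dvl1 followed the others most closely (0.97), then Ccnl2 (0.93), Pex14 (0.92) and Kif1b (0.92). Vwa1 (-0.02), H6pd (0.14), Nphp4 (0.20), Acot7 (0.24) and Pik3cd (0.29) followed least. H6pd and Nphp4, which were not below 0 between the WT groups, were thus also among the genes that followed least in KO samples. Nphp4 is dim and lies close to background. A gene's mean level said little about its WT difference (Pearson r = -0.04 across the 42 genes).

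Among KO samples the widest ranges after Prkcz were those of H6pd (1.76), Per3 (1.73) and Mib2 (1.57). H6pd had 10.49 and 8.74 in KO parous tumours with metastasis, 9.47, 9.28 and 9.82 in those without, 9.21 in the KO nulliparous tumour with metastasis and 9.36, 9.76 and 10.04 in those without. Spsb1, its neighbour among the listed genes, had 9.96 and 8.83 (KO parous with metastasis), 8.93, 9.39 and 8.76 (KO parous without), 9.21 (KO nulliparous with) and 9.20, 8.73 and 9.96 (KO nulliparous without). The same 2 samples, KO parous replicate 1 with metastasis and KO nulliparous replicate 3 without, were the highest in both genes, and the first of them was low in most of the other genes.

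Per3, a clock protein, had 9.53 and 8.96 in KO parous tumours with metastasis, 9.18, 8.53 and 9.12 in those without, 10.26 in the KO nulliparous tumour with metastasis and 8.70, 9.45 and 9.63 in those without. Its WT values were 9.28, 8.67, 9.31 and 9.40 in parous tumours, against 9.13, 9.30, 10.22 and 9.91 in nulliparous tumours. The groups overlapped in either genotype, the WT difference of -0.47 was -0.28 without nulliparous replicate 3, and no source used here gives the time of day at collection. Mib2 had 8.75 and 8.21 (KO parous with metastasis), 8.64, 7.97 and 8.68 (KO parous without), 8.79 (KO nulliparous with) and 8.91, 8.42 and 9.53 (KO nulliparous without), and 8.94, 8.62, 8.33 and 8.64 in WT parous tumours, against 8.84, 8.59, 9.17 and 9.26 in WT nulliparous tumours. KO nulliparous replicate 3 without metastasis was the highest of the 17 samples in Mib2.

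Partners of these genes that lie on other chromosomes were listed by complex or pathway. Over 117 partners the WT parous minus WT nulliparous difference had a median of 0.05, 48 were below 0, and 4 were called lower and 0 higher in limma, where 1.86% of all genes were called lower. Over the same partners the KO parity difference had a median of 0.0003, with 58 below 0 and 0 called. For Arid1a, 16 listed subunits of BAF and related complexes, not all of which join Arid1a, had a WT median of 0.01, 8 below 0 and 0 called. For Casp9 and Dffa, 11 apoptosis genes, Casp8 of the extrinsic pathway among them, had a median of 0.04 and 0 called. The largest difference was that of Bak1, a pore-forming Bcl-2 family protein, at -0.62. For Pex14 and Pex10, 10 other peroxins had a median of 0.08, with Pex16 called lower at -0.48 (adjusted p = 0.0304 in limma). For Exosc10, 10 exosome genes had a median of -0.12, with the exosome cofactor Mphosph6 called lower at -0.95 (adjusted p = 0.0439 in limma).

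For Rpl22, 13 other proteins of the large ribosomal subunit had a WT median of 0.16, 2 below 0 and 0 called. For Dvl1 and Ctnnbip1, 13 Wnt genes had a median of 0.09, 4 below 0 and 0 called. Medians were -0.06 for 5 pentose phosphate enzymes (Pgd and H6pd), -0.06 for 6 PI3-kinase subunits (Pik3cd), 0.11 for 8 enzymes of NAD synthesis (Nmnat1 and Nadk), 0.13 for 9 clock genes (Per3) and 0.01 for 11 polarity and GTPase partners (Cdc42 and Prkcz), with 0 called in each. The lowest median was that of the list for Ifnlr1, -0.59 over 5 genes, 4 of them below 0. Among those is Il10ra (-0.76), a chain of the interleukin-10 receptor and not of the Ifnlr1 receptor. Stat2 and Irf9, transcription factors of interferon signalling, were called lower there, at -1.65 (adjusted p = 0.00707 in limma) and -0.59 (adjusted p = 0.0365 in limma).

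A list of interferon response genes and marker lists of cell types, luminal tumour cells among them, were read too. Of all genes, 51.7% were below 0 between the WT groups and 1.86% were called lower. Of 14 interferon response genes, 14 were below 0 and 11 were called lower, with a median of -1.96; their mean level ran from 8.26 to 9.52 in WT parous tumours, against 10.50 to 11.05 in WT nulliparous tumours. All 11 T and NK cell markers were below 0 and 2 were called lower (median -0.41), with mean levels of 6.38 to 6.56, against 6.60 to 7.70. Fibroblast markers were below 0 in 9 of 9 (median -0.73) with 0 called, skeletal muscle markers in 7 of 7 (-0.74) with 0 called, adipocyte markers in 7 of 7 (-0.48) with 1 called, and endothelial markers in 8 of 8 (-0.22) with 0 called. The mean muscle level was 7.16, 8.33, 7.23 and 7.30 in WT parous tumours, against 10.86, 7.46, 7.16 and 7.95 in WT nulliparous tumours, so 1 nulliparous tumour was far above the rest and the other 3 were in or at the edge of the parous range. Macrophage markers were below 0 in 9 of 10 (-0.38) and B and plasma cell markers in 6 of 6 (-0.10), with 0 called in each list. Luminal markers had a median of 0.01 (6 of 12 below 0) and basal markers one of -0.003 (4 of 7), with 0 called. The part of the interferon response or of these cell types in the WT difference of the distal genes was not tested.

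Within KO tumours the interferon list was at 8.69 and 9.44 in parous tumours with metastasis, 8.77, 9.72 and 8.55 in parous tumours without, 10.48 in the nulliparous tumour with metastasis and 9.19, 8.18 and 8.95 in nulliparous tumours without. The T and NK cell list was at 6.31 and 6.20 (parous with metastasis), 6.49, 6.41 and 6.37 (parous without), 6.82 (nulliparous with) and 6.34, 6.31 and 6.37 (nulliparous without). Of the 2 KO tumours in which the distal genes were high, the one with metastasis was the highest KO sample in both lists, and nulliparous replicate 3 without metastasis was within the range of the other KO samples in both.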

How the data were processed

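RNA was measured on 18 arrays, 1 per tumour by the labels. The authors deposited log2 expression values of 35556 probe sets; RMA and oligo are named, without versions, per the submitters' processing notes. The method adjusts background, quantile-normalizes arrays and combines the probes of a set, so a shift shared by all genes is removed and dim genes are compressed. Array medians lay between 7.60 and 7.67. Precision is limited by how many arrays there are.

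Gene names came from the platform annotation (21789 with 1 gene, 1621 with several, 12146 with none), and the brightest one-gene probe set was kept for 19938 genes. RefSeq genes of GRCm38.p6 gave chromosome and gene order for 19852 of them, and promoter sequences. Tests used R 4.3.3 and limma 3.58.1, fitting 6 group means to 17 samples with lmFit and eBayes (2-sided, Benjamini-Hochberg over all genes, threshold 0.05), and were checked on simulated data. Adjusted p-values from limma are this work's own; the deposited table holds none. The 2 near-identical arrays were averaged, and whether they hold RNA of 1 tumour or of 2 is not known. The labels call the arrays biological replicates. Numbers shared by groups give no common animal, and same-numbered samples did not deviate together throughout, so they were not treated as pairs.

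The genes and all lists were chosen with earlier results of these data known. Values in every sample are given for the 6 lowest WT parity differences, the 6 overlapping genes nearest to or above 0 and the 4 widest KO ranges; other genes were named by role. Unlisted genes of the span are the 3 lowest and 3 highest, and at most 3 partners per list are named. Alternatives covered the averaged arrays, probe sets, normalization, dim genes, samples in the fit, a replicate block and each sample left out.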

Additional observations from a re-analysis of the deposited data

Results flagged for a closer look

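Dividing the 42 genes into the stretches Arid1a to Casp9, Exosc10 to Nphp4 and Pank4 to Agrn, 1 tumour stood apart from its group. Over the 23 genes from Exosc10 to Nphp4, WT nulliparous replicate 3 had a level of 0.12, against 0.35 to 0.38 in the other 3 WT nulliparous tumours, a gap of 0.905 of the group's range where Dixon's critical value for 4 samples is 0.829. Of 36 group and level combinations tested, 1 was beyond its critical value, and chance alone gives about 1 in 20. The stretch boundaries were drawn after the window levels were seen, and WT nulliparous values helped choose the genes. The critical value and that rate therefore do not hold here, and the gap is a description only. In the other stretches the same tumour was at 0.25 (Arid1a to Casp9) and 0.24 (Pank4 to Agrn), against 0.28 to 0.43 and 0.36 to 0.46 in the others.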

How the results depend on the processing

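The median WT parous minus WT nulliparous difference of the 42 genes kept its direction in every alternative run, at -0.55 to -0.47, and at -0.60 to -0.49 with 1 tumour left out. The number of them called lower, 16, depended on the tumours: it ranged from 4 (without nulliparous replicate 4) to 18 (without nulliparous replicate 3), with 9, 5 and 7 without parous replicates 2, 3 and 4 and 6 without nulliparous replicate 1. With the replicate number as a block it was 10, in a fit of those 2 groups alone whose numbers mark no known pair (same-numbered WT tumours correlated at -0.15 to 0.07). By gene, the block was followed only for the genes given in every sample by the stated rule. Among these, Nadk and Ifnlr1 were called lower in both fits, and Ctnnbip1 and Kif1b in the main fit alone. As the count fell from 16 to 10, further genes lost their call with the block. The counts called within KO tumours stayed at 0 with it. Partners and markers were not run with the block. Fitting only the 2 groups, with no block, gave 22 genes called lower. Averaging its probe sets gave Prkcz a WT difference of -0.53. The KO parity median was -0.25 to -0.15 over the alternatives and -0.23 to -0.02 with 1 tumour left out, with 0 genes called in each. The KO metastasis median was -0.06 to 0.01, and -0.10 to 0.004 with 1 left out, again with 0 called. KO minus WT medians were -0.03 to 0.03 in parous and -0.35 to -0.29 in nulliparous tumours. Precision is limited by 2 to 4 samples a group, and dim genes such as Nphp4 and Kcnab2 lie close to background.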
